A study of Homo sapiens with 6 samples.

Results

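snoRNA host genes and a set of well-studied long noncoding RNAs (lncRNAs) were followed in TC28a2, a human chondrocyte cell line made immortal in culture. RNA was taken 48 h after transfection, with a ZEB1 overexpression vector for 3 libraries and with a control vector for 3 libraries, and was read by DRUG-seq, a low-cost pooled form of RNA-seq. The promoter of the vector and the share of cells that took it up are not given in the labels. ZEB1 is a zinc finger transcription factor best known as a repressor of epithelial genes. The members were all symbols made of SNHG and a number, plus 21 lncRNAs listed by name. The table held 25 SNHG rows and 20 of the 21 named genes, which gave 45 members among 28395 gene rows. MIR200CHG was the entry without a matching row and is not analysed here.

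snoRNA host genes are transcribed and spliced like mRNAs, and small nucleolar RNAs (snoRNAs) are cut from their introns. The snoRNAs guide methylation and pseudouridylation of ribosomal and spliceosomal RNA, while the spliced host transcript is often decayed on the ribosome by nonsense-mediated decay. Several host transcripts are known to start with an oligopyrimidine tract, as the mRNAs of ribosomal proteins do, and their amounts respond to growth signals. The other members include RNAs of nuclear bodies (MALAT1, NEAT1), imprinted RNAs (H19, MEG3, KCNQ1OT1), precursors of microRNAs and cytoplasmic regulators such as NORAD. In cartilage cells such RNAs are studied as regulators of growth, stress and matrix turnover.

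Of the 29 snoRNA hosts, 27 held at least 1 annotated snoRNA or small Cajal body RNA within their RefSeq span. The first bases of some host transcripts and of MALAT1 are shown as examples, and they do not stand for all hosts. The runs of C and T there are a feature that the choice of members did not use. Not shown are SNHG18, with a run of 21 bases and a log2 fold change (ZEB1 vector over control vector) of -1.12, and SNHG12, with 11 bases and 0.13. GAS5 and SNHG29, also not shown, had no run and log2 fold changes of 0.47 and 0.45. Each window runs from 20 bases before to 40 bases from the annotated start, as given by the RefSeq promoter entry (GRCh38.p14). Capitals mark the unbroken run of C and T that begins at that start. For ZFAS1, SNHG12, ZEB1-AS1, OIP5-AS1 and LINC-PINT this start lies inside the RefSeq gene span and not at its edge. The ZFAS1 span begins at 49278178, and its window begins at 49278622.
ZFAS1, chr20:49278622-49278681, plus strand: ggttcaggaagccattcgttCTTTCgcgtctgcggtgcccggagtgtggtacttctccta
SNHG5, chr6:85678694-85678753, minus strand: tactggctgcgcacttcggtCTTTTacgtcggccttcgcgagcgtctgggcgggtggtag
SNHG19, chr16:2155319-2155378, minus strand: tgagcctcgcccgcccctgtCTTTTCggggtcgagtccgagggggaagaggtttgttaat
SNHG32, chr6:31834896-31834955, plus strand: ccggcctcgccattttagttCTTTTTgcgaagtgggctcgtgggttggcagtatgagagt
SNHG16, chr17:76557744-76557803, plus strand: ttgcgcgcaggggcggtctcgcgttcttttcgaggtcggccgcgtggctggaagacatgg
SNHG17, chr20:38435289-38435348, minus strand: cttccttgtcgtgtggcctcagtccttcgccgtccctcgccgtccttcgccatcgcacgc
MALAT1, chr11:65497718-65497777, plus strand: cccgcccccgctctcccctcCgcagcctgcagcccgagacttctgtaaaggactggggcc

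The table of promoters matched 40 of the 45 members. A run of at least 5 pyrimidines began at the annotated start in 7 of these 40 (17.5%), against 43 of 63 ribosomal protein genes found there (68.3%) and 5.22% of all 27305 promoters. All 7 were snoRNA hosts, and 6 of them had enough counts to be tested (SNHG19, ZFAS1, SNHG5, SNHG32, SNHG12 and SNHG18). A start annotated a few bases away from the one used would hide such a run. In SNHG16, which had no run, the letters gttcttttc follow shortly after the annotated start. Whether its transcripts begin there was not tested.

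The ZEB1 libraries held 1277632, 1621270 and 3316228 counts in replicates 1, 2 and 3, and the control libraries held 5359200 to 5878640. ZEB1 itself had 12267, 14047 and 6894 CPM (each count relative to its library's total, scaled by TMM factors) in the ZEB1 libraries and 20.8 to 32.6 CPM in the controls (log2 fold change 8.79, edgeR adjusted p 2.37e-13). Reads of the vector and of the endogenous gene were not separated. Bulk libraries average transfected and untransfected cells, so fewer responding cells and a smaller response per cell cannot be told apart. The labels do not say whether the replicates were separate cultures, and p-values then measure the spread between these libraries. Of 15 chondrocyte markers only SOX9 had enough counts to be tested (log2 fold change 0.01). COL9A1 was at 0, and ACAN and COL2A1 had 13 and 11 counts over all 6 libraries. Summed marker levels were 68.8 to 82.6 CPM in ZEB1 libraries and 56.6 to 89.1 CPM in controls for chondrocytes. Leukocyte markers summed to 6.22 to 14.0 CPM in ZEB1 libraries and 13.0 to 16.0 CPM in controls. Epithelial markers summed to 1.78 to 3.28 CPM in ZEB1 libraries and 2.94 to 5.29 CPM in controls, and endothelial markers to 8.36 to 8.89 CPM in ZEB1 libraries and 1.44 to 2.77 CPM in controls. The leukocyte marker CD3E was at 0. PECAM1, the tested endothelial marker, had 4, 12 and 22 counts in ZEB1 libraries and 9, 6 and 11 in controls. Scaled, this was 3.55, 7.72 and 6.55 CPM in ZEB1 libraries and 1.44, 1.09 and 1.80 CPM in controls, without overlap. Its log2 fold change was 2.04 (SE 0.87, edgeR adjusted p 0.462). TEK, another endothelial marker, had 6 counts (5.33 CPM) in ZEB1 replicate 1 and 0 elsewhere. The part of these markers in the results below was not tested.

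Enough counts for a test were present in 34 of the 45 members, 22 of them snoRNA hosts. No member passed an edgeR adjusted p of 0.05 over the 11329 genes tested. In that test 0.00883% of all genes passed, which is ZEB1 alone. The smallest adjusted p of a member was 0.161, for SNHG5. At an unadjusted p under 0.05, 11 of the 34 tested members were higher with the ZEB1 vector and 0 were lower, where the background is 5.83% of all tested genes higher and 3.57% lower. Of these 11, 10 were snoRNA hosts (SNHG10, SNHG19, ZFAS1, SNHG5, SNHG9, SNHG6, SNHG8, GAS5, SNHG29 and SNHG32) and the other was CYTOR.

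Other tools made a few calls. DESeq2 called SNHG5, SNHG6 and ZFAS1 (adjusted p 0.00674, 0.0366 and 0.0181), all higher with ZEB1. It gave an adjusted p to 2544 genes and called 6.21% of these higher. Many of the 34 tested members got no DESeq2 adjusted p, among them SNHG1, SNHG3, SNHG10 and SNHG19. The 3 calls are thus out of fewer members than 34. limma-voom with sample quality weights called the same 3 genes (adjusted p 0.0031, 0.036 and 0.00386), against a background of 1.27% higher. Without the weights limma-voom called SNHG5 (adjusted p 0.0243, background 0.477% higher). edgeR called those 3 genes when no filter on low counts was applied (background 0.6% higher).

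**Figure D1:**
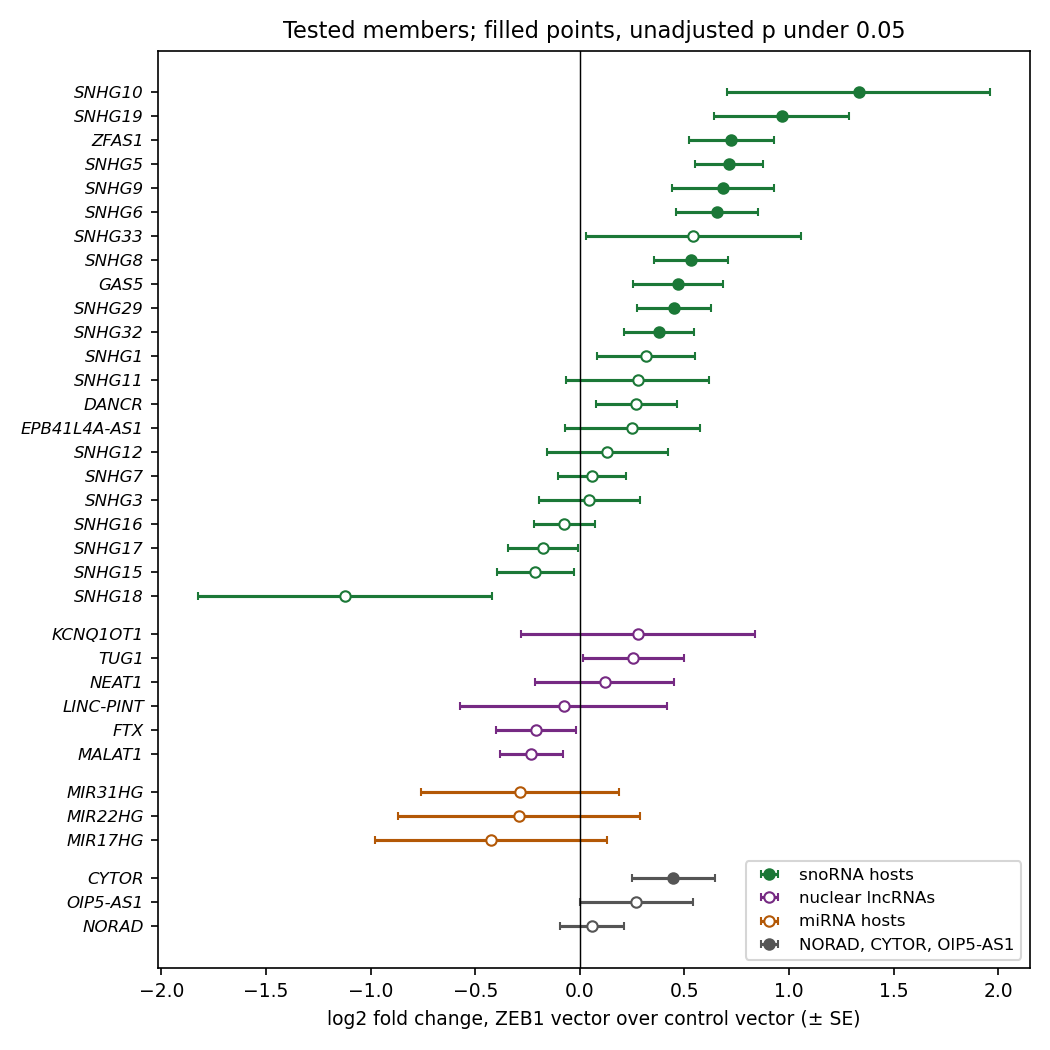
Log2 fold change of each tested member, ZEB1 vector over control vector, with its approximate standard error as the bar; filled points have an unadjusted edgeR p under 0.05. The 11 filled points all lie to the right of 0, and 10 of them are snoRNA hosts.

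The 22 tested snoRNA hosts had a median log2 fold change of 0.35, with 18 above 0 and 4 below, while over all tested genes the median was -0.01 and 48.5% lay above 0. Together the 29 hosts made up 0.415%, 0.381% and 0.302% of all counts with the ZEB1 vector in replicates 1, 2 and 3. Their 95% Wilson intervals were 0.404 to 0.427%, 0.372 to 0.391% and 0.296 to 0.308%, and cover counting error only. In the control libraries the share was 0.283%, 0.315% and 0.286%, with intervals of 0.279 to 0.288%, 0.310 to 0.320% and 0.282 to 0.291%. ZEB1 replicates 1 and 2 thus stood above every control and replicate 3 stood within the control range.

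SNHG5, host of the box C/D snoRNAs SNORD50A and SNORD50B (Entrez 387066, chromosome 6, 85677007 to 85678733, GRCh38.p14), was the member with the smallest p. It had 381, 356 and 292 CPM in ZEB1 replicates 1, 2 and 3 and 209, 243 and 174 CPM in control replicates 1, 2 and 3. No ZEB1 library was as low as a control, with means of 343 ± 46.1 CPM in ZEB1 libraries and 209 ± 34.3 CPM in controls (SD, n = 3 each). The log2 fold change was 0.71 (SE 0.16, edgeR adjusted p 0.161), and it stayed between 0.60 and 0.83 on leaving out single libraries. Groups also did not overlap in SNHG6, SNHG8, SNHG10 and OIP5-AS1, so that 5 of the 34 tested members had all ZEB1 libraries above all controls and 3 (SNHG16, SNHG17 and SNHG18) had all below. Over all tested genes these shares were 6.96% above and 8.16% below.

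SNHG6 (Entrez 641638, chromosome 8, 66921690 to 66925541) hosts SNORD87 and lies partly within the span of MCMDC2. Its levels were 405, 296 and 214 CPM with the ZEB1 vector and 156, 214 and 207 CPM with the control vector, a log2 fold change of 0.65 (SE 0.20, edgeR adjusted p 0.239). ZEB1 replicate 3 was barely above the highest control, and leaving out single libraries gave 0.39 (without ZEB1 replicate 1) to 0.85. SNHG8, which hosts the H/ACA snoRNA SNORA24, had 210, 149 and 144 CPM in ZEB1 libraries and 110, 129 and 105 CPM in controls (log2 fold change 0.53, SE 0.18). SNHG10 carries SCARNA13, a guide RNA of Cajal bodies. It was rare, with 10, 9 and 47 counts in ZEB1 libraries and 19, 30 and 19 in controls, and its log2 fold change of 1.33 had an SE of 0.63.

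ZFAS1 (Entrez 441951, chromosome 20, 49278178 to 49289260) is transcribed from the promoter region of ZNFX1 and hosts the SNORD12 family. It had 1367, 1138 and 640 CPM in ZEB1 replicates 1, 2 and 3 and 608, 690 and 600 CPM in the controls. Replicates 1 and 2 were well above the controls while replicate 3 lay among them, which gave 1048 ± 371 CPM in ZEB1 libraries and 633 ± 49.5 CPM in controls (SD, n = 3 each). The log2 fold change was 0.72 (SE 0.20, edgeR adjusted p 0.225). With ZEB1 replicate 3 left out it was 0.98 and passed (adjusted p 0.0015), and with replicate 3 as the sole ZEB1 library it was 0.01.

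SNHG19 and SNHG9 are short hosts on chromosome 16, of SNORD60 and SNORA78. The level of SNHG19 was 72.9, 72.0 and 25.6 CPM in ZEB1 libraries and 26.6, 24.1 and 33.9 CPM in controls (log2 fold change 0.96, SE 0.32). For SNHG9 the values were 109, 126 and 57.2 CPM with the ZEB1 vector and 50.8, 66.5 and 61.4 CPM with the control vector (log2 fold change 0.68, SE 0.24). In both, 2 ZEB1 libraries lay above all controls and replicate 3 lay within the control range. With replicate 3 as the sole ZEB1 library the log2 fold changes were -0.15 for SNHG19 and -0.06 for SNHG9.

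GAS5 (Entrez 60674, chromosome 1, 173863901 to 173869045) hosts 11 annotated snoRNAs and is known to accumulate in growth-arrested cells, where its RNA can bind the glucocorticoid receptor. It had 307, 278 and 144 CPM in ZEB1 replicates 1, 2 and 3 and 145, 181 and 194 CPM in control replicates 1, 2 and 3. Here replicate 3 was below all controls, so the log2 fold change of 0.47 (SE 0.21, edgeR adjusted p 0.513) joined libraries of opposite direction. It was 0.74 without replicate 3 (adjusted p 0.0153) and -0.28 with replicate 3 as the sole ZEB1 library. GAS5 overlaps ZBTB37 and GAS5-AS1 in the annotation, and since no strand setting is given, reads of such partners cannot be told apart. Another annotated gene overlaps 26 of the 45 members.

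SNHG29, host of SNORD49A, SNORD49B and SNORD65, had 688, 468 and 415 CPM in ZEB1 libraries and 363, 435 and 347 CPM in controls (log2 fold change 0.45, SE 0.18). SNHG32, in the major histocompatibility complex, hosts SNORD48 and SNORD52. It had 287, 266 and 190 CPM with the ZEB1 vector and 175, 205 and 188 CPM with the control vector (log2 fold change 0.38, SE 0.17). Both were highest in ZEB1 replicate 1, and replicate 3 of both lay within the control range. Without ZEB1 replicate 1 the log2 fold change was 0.20 for SNHG29 and 0.25 for SNHG32. Without that library it was also lower by over 1.5 times for SNHG8 (0.34), ZFAS1 (0.48), GAS5 (0.25) and CYTOR (0.29), and SNHG9 had 0.43 without ZEB1 replicate 2.

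**Figure D2:**
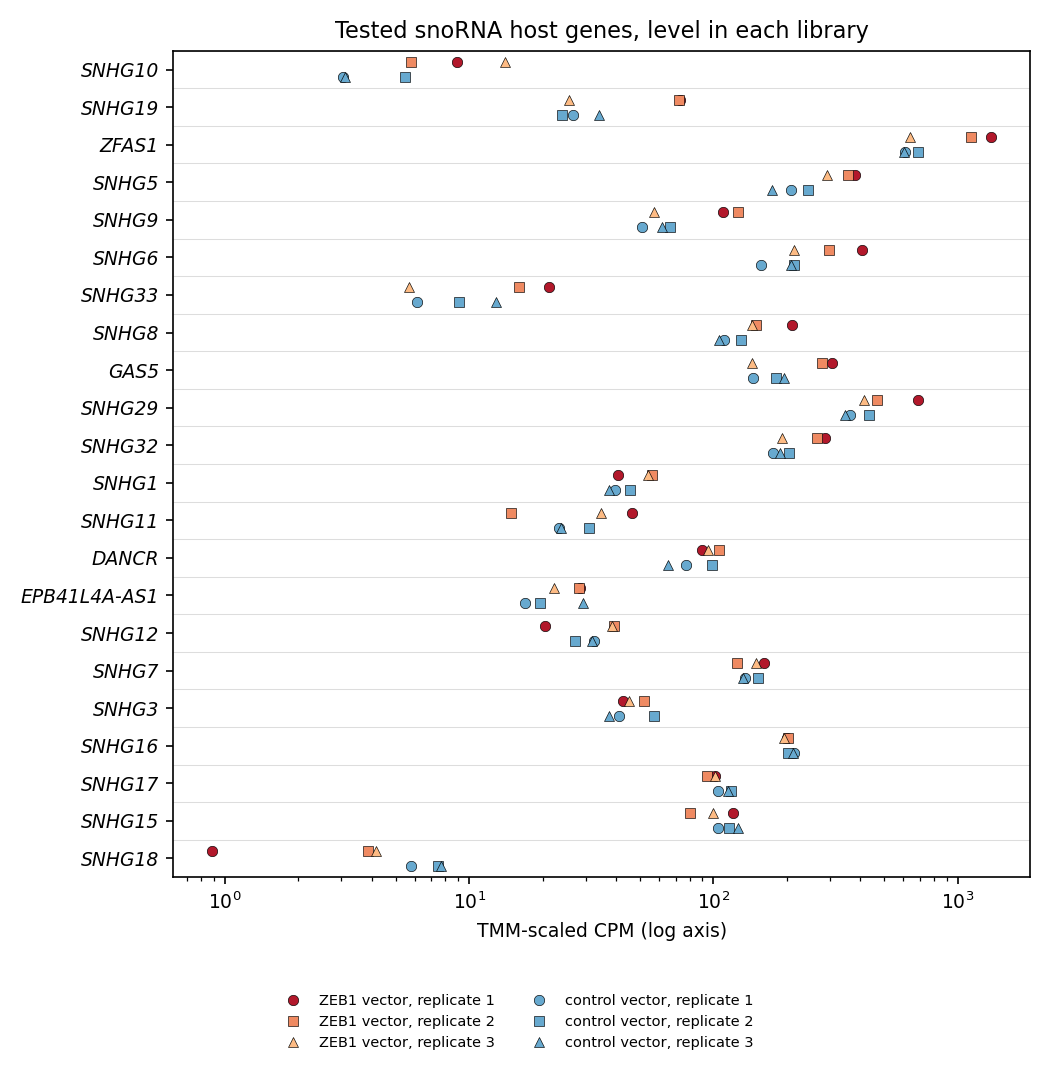
Level of the 22 tested snoRNA hosts in each library, as TMM-scaled CPM on a log axis, with the ZEB1 libraries above the control libraries in each row and genes ordered by log2 fold change. In ZFAS1 the ZEB1 libraries 1 and 2 reach 1367 and 1138 CPM, while library 3 (640 CPM) lies among the controls (600 to 690 CPM).

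The remaining 12 tested hosts had unadjusted p-values above 0.05. SNHG1, which carries SNORD22 and SNORD25 to SNORD31, had 40.9, 55.9 and 54.2 CPM in ZEB1 libraries and 39.6, 45.6 and 37.2 CPM in controls (log2 fold change 0.32, SE 0.23). DANCR, host of SNORA26 and known as a repressor of differentiation in skin progenitors, had 89.7, 105 and 94.7 CPM with the ZEB1 vector and 77.0, 98.6 and 65.1 CPM with the control vector (0.27, SE 0.19). The groups overlapped in both.

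EPB41L4A-AS1, host of SNORA13, had 28.4, 28.3 and 22.3 CPM in ZEB1 libraries and 17.0, 19.5 and 29.2 CPM in controls (log2 fold change 0.25, SE 0.32). Values for SNHG11 were 46.2, 14.8 and 34.6 CPM with the ZEB1 vector and 23.4, 31.0 and 23.8 CPM with the control vector, and for SNHG33 they were 21.3, 16.1 and 5.66 CPM in ZEB1 libraries and 6.10, 9.12 and 12.9 CPM in controls. The ZEB1 libraries of these 2 hosts, with log2 fold changes of 0.28 (SE 0.34) and 0.54 (SE 0.51), spread on both sides of the controls. SNHG12, whose annotated start opens with 11 pyrimidines, had 20.4, 39.2 and 38.4 CPM in ZEB1 libraries and 32.4, 27.2 and 31.8 CPM in controls (log2 fold change 0.13).

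SNHG16, which hosts the SNORD1 family, was the steadiest host, with 201, 201 and 194 CPM in ZEB1 libraries and 213, 202 and 211 CPM in controls. Its log2 fold change was -0.07 (SE 0.15) and ranged from -0.10 to -0.06 on leaving out single libraries. SNHG17, host of the SNORA71 group, had 101, 94.5 and 102 CPM in ZEB1 libraries and 104, 118 and 114 CPM in controls (-0.18, SE 0.17). In both, the ZEB1 libraries lay just below the controls by less than 1 SE or about 1 SE. SNHG15, the host of SNORA9, had 120, 80.4 and 99.8 CPM with the ZEB1 vector and 105, 116 and 126 CPM with the control vector (-0.21, SE 0.18).

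SNHG7 had 162, 125 and 149 CPM in ZEB1 libraries and 134, 152 and 133 CPM in controls, with a log2 fold change of 0.06, or -0.08 when scaled by library size only. SNHG3, which shares its locus with RCC1, had 42.7, 52.1 and 45.0 CPM with the ZEB1 vector and 41.1, 57.1 and 37.5 CPM with the control vector (0.04, or -0.08 when scaled by library size only). These 2 hosts overlapped between groups and differed by less than their SE. SNHG18 was the host with the lowest log2 fold change, -1.12 (SE 0.70), from 1, 6 and 14 counts in ZEB1 libraries and 36, 41 and 47 in controls. Its 3 ZEB1 libraries were all below the controls in CPM, and its unadjusted p was above 0.05.

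The ZEB1 libraries differed among themselves over the hosts as a group. A score, the median log2 CPM of the 22 tested hosts relative to each gene's control mean, was 0.71, 0.41 and 0.04 in ZEB1 replicates 1, 2 and 3 and -0.10, 0.12 and 0.00475 in control replicates 1, 2 and 3. Replicates 1 and 2 are also the libraries with the fewest counts and the most ZEB1, and these cannot be told apart. The number of hosts with an unadjusted p under 0.05, all of them higher, was 9 of 22 without ZEB1 replicate 3 (background 8.59% higher). It was 6 without replicate 1 (4.39%) and 6 without replicate 2 (4.88%). Leaving out control replicates 1, 2 and 3 gave 5, 9 and 7 (3.05%, 4.43% and 3.77%). With replicate 3 as the sole ZEB1 library, assumed to vary as the controls do, it was 2 of 24 hosts, SNHG5 and SNHG10 (2.93%), and the hosts' median log2 fold change was 0.00537.

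When all libraries were thinned to 1277632 counts, 8 of 21 tested hosts had such a p (background 6.63% higher) and the median was 0.42. Scaling by library size only moved the median of all genes to -0.14 and left 6 hosts (background 3.06% higher) with a median of 0.21. Without ZEB1 replicate 3 edgeR called 6 members, GAS5, SNHG5, SNHG6, SNHG9, SNHG19 and ZFAS1, against 2.4% of all genes called higher.

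**Figure D3:**
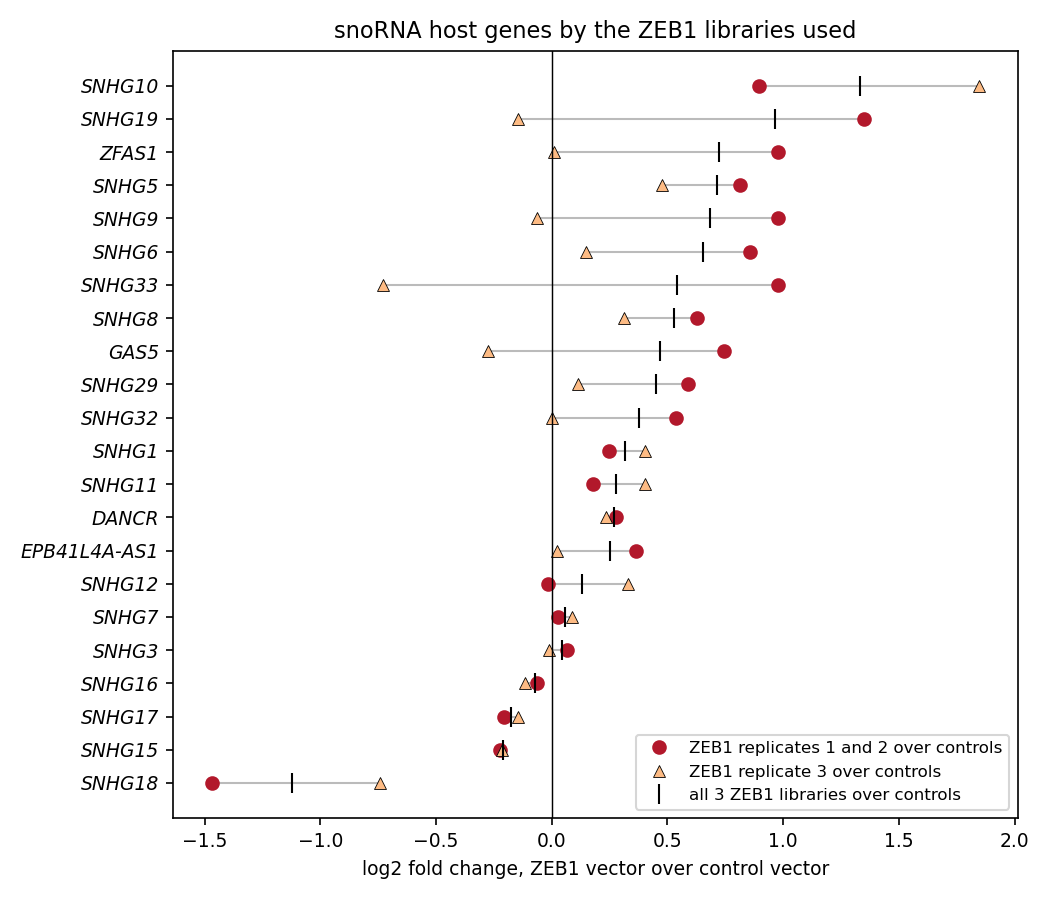
Log2 fold change over the controls for each tested snoRNA host, from ZEB1 replicates 1 and 2 (circles), from ZEB1 replicate 3 (triangles) and from all 3 ZEB1 libraries (ticks). For ZFAS1 the values are 0.98, 0.01 and 0.72, while SNHG16, SNHG17 and SNHG15 have all 3 values between -0.22 and -0.06.

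Genes that share a feature with the hosts were set beside them as described groups. The mRNAs of cytosolic ribosomal proteins are known to begin with a pyrimidine tract, and 43 of 63 with a promoter entry had the run at the annotated start. The 79 genes listed had a median log2 fold change of 0.48 with 76 above 0. An unadjusted p under 0.05 was found for 54 (68.4%), all higher, against 5.83% of all tested genes. The score of these genes was 0.78, 0.42 and 0.14 in ZEB1 replicates 1, 2 and 3 and -0.13, 0.11 and 0.02 with the control vector, the same order of libraries as for the lncRNA hosts. RPL23, which itself hosts snoRNAs, had 5173, 4289 and 2939 CPM in ZEB1 libraries and 2119, 2374 and 2597 CPM in controls (log2 fold change 0.81, SE 0.18, edgeR adjusted p 0.161). RPL21 had a log2 fold change of 0.78 (SE 0.18) and RPLP1, of the ribosomal stalk, 0.41 (SE 0.18), though reads of their processed pseudogene copies make such values uncertain.

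Protein-coding snoRNA hosts had 53 of 54 listed genes tested, with a median log2 fold change of 0.14 and 35 above 0. An unadjusted p under 0.05 was found for 14 (26.4%), all of them higher, against 5.83% of all tested genes. EEF1A1, the translation elongation factor, had the most counts among the 53 (log2 fold change 0.19, SE 0.15). Most of the 14 were ribosomal protein genes. The 29 tested hosts that encode other proteins had a median of -0.02, and 1 of them (3.45%) had an unadjusted p under 0.05, higher. All ZEB1 libraries lay above all controls in 5 of these 29 (17.2%) and below in 0. These shares were 18.2% above and 13.6% below for the tested lncRNA hosts, and 6.96% and 8.16% over all tested genes. Among lncRNA hosts, the 6 with the pyrimidine run at the annotated start had a median of 0.55 (from -1.12 for SNHG18 to 0.96 for SNHG19), against 0.28 for the 13 with a promoter entry and no such run. These ranges overlap, and the 2 values are a description of few genes.

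**Figure D4:**
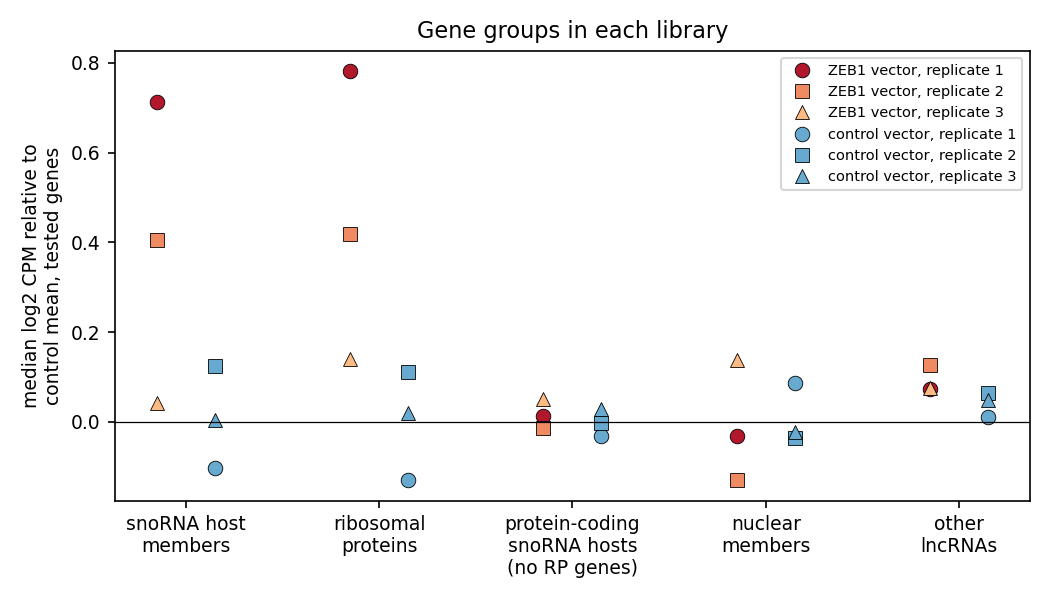
Median log2 CPM relative to the control mean over the tested genes of 5 groups, in each ZEB1 library (left of each pair) and each control library (right). The lncRNA hosts and the ribosomal protein genes both order the ZEB1 libraries 1, 2, 3 (0.71, 0.41, 0.04 and 0.78, 0.42, 0.14), while protein-coding hosts without ribosomal protein genes lie near 0.

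Proteins that assemble or use the hosted snoRNAs were counted next. Of 19 snoRNP proteins and assembly factors, all were tested, with a median log2 fold change of 0.04. An unadjusted p under 0.05 was found for 3 that were higher (15.8%) and 0 that were lower. Over all tested genes 5.83% were higher and 3.57% lower at that p. SNU13, which binds the K-turn of box C/D snoRNAs, had 700.2, 467 and 469 CPM in ZEB1 libraries and 351, 366 and 366 CPM in controls (log2 fold change 0.59, SE 0.16, edgeR adjusted p 0.225). ZNHIT3, an assembly factor of the same particles, had 125, 118 and 74.8 CPM with the ZEB1 vector and 63.7, 65.1 and 63.0 CPM with the control vector (0.71, SE 0.21). In these genes no ZEB1 library overlapped a control, and DESeq2 called both (adjusted p 0.0181 and 0.0306). They were among 3 genes of the list that DESeq2 called higher, against 6.21% of all genes with a DESeq2 adjusted p. NOP56, the core box C/D protein with the most counts, had 0.08 (SE 0.15).

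Nonsense-mediated decay factors, 19 of 19 tested, had a median of -0.01. At an unadjusted p under 0.05, 2 of them were higher (10.5%) and 1 was lower (5.26%). These shares were 5.83% and 3.57% over all tested genes. The 2 were MAGOH at 0.51 and RBM8A at 0.33, partners in the exon junction complex, and the 1 was CASC3, of the same complex, at -0.35. Paraspeckle and nuclear speckle proteins, 14 of 14 tested, had a median of -0.08. At an unadjusted p under 0.05, 0 of them were higher and 1 was lower (7.14%, against 3.57% of all tested genes). HNRNPK, with the most counts in that list, had 0.03, and TARDBP had -0.26 (edgeR unadjusted p 0.114). No gene of these 2 lists passed an edgeR or DESeq2 adjusted p of 0.05.

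Rows for snoRNAs and small Cajal body RNAs themselves numbered 412, of which 158 had a count and 18 could be tested. DRUG-seq is known to prime reverse transcription on poly(A), which mature snoRNAs lack. The 58 rows that lie within members together had 40, 38 and 78 counts in ZEB1 libraries and 144, 106 and 129 in controls. Scaled, this was 35.5, 24.4 and 23.2 CPM in ZEB1 libraries and 23.1, 19.3 and 21.1 CPM in controls, a ratio of 1.31. The groups did not overlap, by a narrow margin, and the two-sided exact permutation p of 0.1 is the smallest that 3 libraries against 3 allow. Within GAS5 the snoRNA rows summed to 7.11, 7.72 and 5.66 CPM in ZEB1 libraries and 10.6, 2.73 and 10.3 CPM in controls, which overlap.

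Among the nuclear lncRNAs, MALAT1 (Entrez 378938, chromosome 11, 65497738 to 65506516) had most of the counts. It resides in nuclear speckles and ends in a triple helix in place of a poly(A) tail. The antisense TALAM1 overlaps it. MALAT1 levels were 1631, 1813 and 1638 CPM in ZEB1 replicates 1, 2 and 3 and 2245, 1753 and 1977 CPM in the controls. The means were 1694 ± 103 CPM in ZEB1 libraries and 1991 ± 247 CPM in controls (SD, n = 3 each), and ZEB1 replicate 2 lay above the lowest control. The log2 fold change was -0.23 (SE 0.15, edgeR adjusted p 0.682) and -0.32 to -0.15 on leaving out single libraries. When scaled by library size only it was -0.37 with an unadjusted p under 0.05, the 1 member that was lower by that measure, where 7.12% of all genes were lower.

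NEAT1, the scaffold of paraspeckles, had 17.8, 18.6 and 25.6 CPM in ZEB1 libraries and 17.8, 19.3 and 21.1 CPM in controls (log2 fold change 0.12, SE 0.33, or -0.0011 when scaled by library size only). TUG1 had 49.8, 36.0 and 54.8 CPM with the ZEB1 vector and 42.5, 38.3 and 37.7 CPM with the control vector (0.26, SE 0.24). Both overlapped between groups. FTX, from the X-inactivation centre, had 94.2, 63.0 and 79.2 CPM in ZEB1 libraries and 95.6, 88.2 and 88.0 CPM in controls (-0.21, SE 0.19). Its span also covers 13 other annotated genes.

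KCNQ1OT1, the imprinted antisense RNA within KCNQ1, had 1, 28 and 50 counts in ZEB1 replicates 1, 2 and 3 and 65, 52 and 57 in control replicates 1, 2 and 3. Scaled, ZEB1 replicate 1 was far below the controls at 0.889 CPM and replicates 2 and 3 were above them at 18.0 and 14.9 CPM, so the log2 fold change of 0.28 (SE 0.56) stands for no single library. LINC-PINT, a p53-induced lncRNA, had 15.1, 6.43 and 9.23 CPM in ZEB1 libraries and 6.42, 11.1 and 14.2 CPM in controls (-0.08, SE 0.49). Over the 6 tested nuclear members the median log2 fold change was 0.02, with 3 above 0, 3 below and 0 with an unadjusted p under 0.05. Scaling by library size only turned that median to -0.11.

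CYTOR, a cytoplasmic lncRNA linked to proliferation, had 165, 151 and 99.5 CPM in ZEB1 libraries and 91.6, 119 and 90.4 CPM in controls (log2 fold change 0.45, SE 0.20, edgeR adjusted p 0.487). ZEB1 replicates 1 and 2 lay above all controls and replicate 3 among them. A near-identical copy, MIR4435-2HG, makes this value uncertain, and that copy had a log2 fold change of 0.02. NORAD, a cytoplasmic RNA that binds Pumilio proteins, had 186, 168 and 153 CPM with the ZEB1 vector and 162, 166 and 157 CPM with the control vector. Its log2 fold change was 0.06 (SE 0.15), or -0.08 when scaled by library size only. OIP5-AS1 had 29.3, 31.5 and 38.4 CPM in ZEB1 libraries and 26.9, 28.8 and 27.6 CPM in controls, without overlap but about 1 SE from 0 (0.27, SE 0.27).

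**Figure D5:**
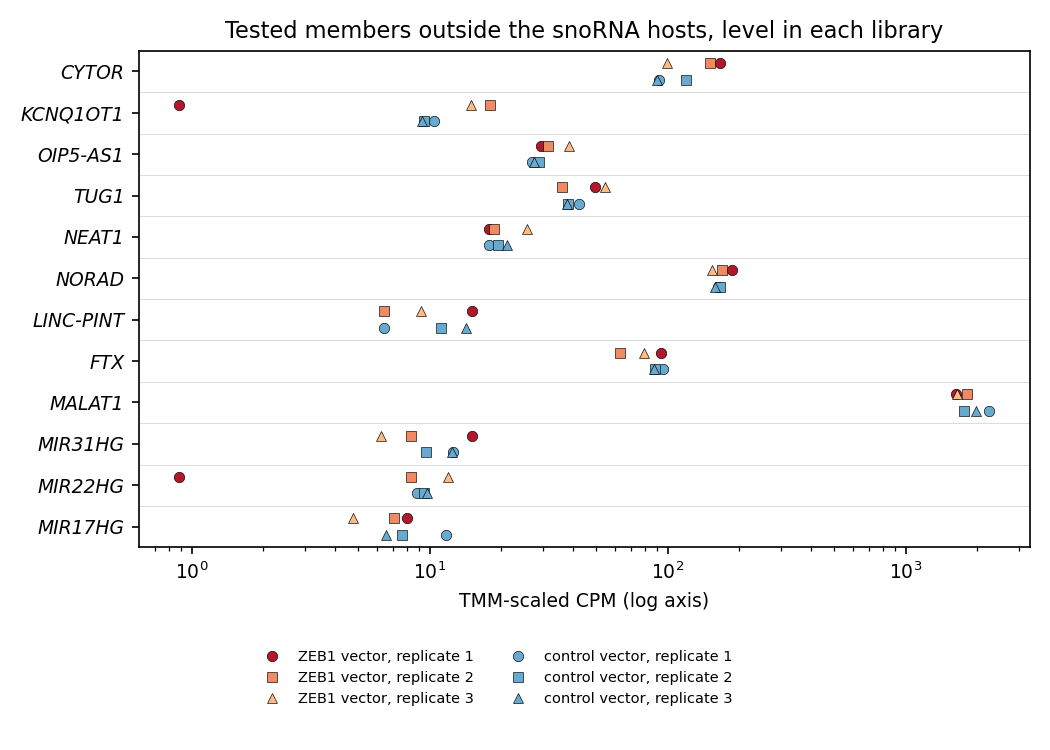
Level of the 12 tested members outside the snoRNA hosts in each library, as TMM-scaled CPM on a log axis, ZEB1 libraries above control libraries in each row. KCNQ1OT1 and MIR22HG have a single count, or 0.889 CPM, in ZEB1 replicate 1 and lie near the controls or above them in the other ZEB1 libraries.

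Precursors of microRNAs (miRNAs) were rare. Their mature products were not measured, and the main arms of the 3 tested hosts are shown with the seed, bases 2 to 8, in capitals (RefSeq, GRCh38.p14) to name what each transcript carries. In MIR17HG, miR-17-5p and miR-20a-5p share a seed, as do miR-19a-3p and miR-19b-3p.
miR-17-5p: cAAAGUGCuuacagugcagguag
miR-20a-5p: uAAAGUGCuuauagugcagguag
miR-18a-5p: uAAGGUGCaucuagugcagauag
miR-19a-3p: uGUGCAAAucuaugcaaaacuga
miR-19b-3p: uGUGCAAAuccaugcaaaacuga
miR-92a-3p: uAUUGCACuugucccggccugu
miR-22-3p: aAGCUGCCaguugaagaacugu
miR-31-5p: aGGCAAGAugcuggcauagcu

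MIR17HG, the MYC-responsive host of this oncogenic cluster, had 8.0, 7.07 and 4.77 CPM in ZEB1 libraries and 11.7, 7.66 and 6.53 CPM in controls (log2 fold change -0.43, SE 0.55). MIR31HG had 15.1, 8.36 and 6.26 CPM with the ZEB1 vector and 12.5, 9.66 and 12.4 CPM with the control vector (-0.29, SE 0.47). MIR22HG had 1, 13 and 40 counts in ZEB1 libraries and 55, 52 and 60 in controls (-0.29, SE 0.58). All 3 overlapped between groups, and for MIR22HG the sign turned to 0.14 without ZEB1 replicate 1.

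Below the counts needed for a test were 11 members. ZEB1-AS1, which begins at the ZEB1 promoter on the other strand and overlaps ZEB1 in the annotation, so that reads of the 2 may be mixed, had 0, 0 and 1 counts in ZEB1 libraries and 4, 4 and 10 in controls. Per total counts this is a ratio of 0.153 with an exact 95% counting interval of 0.00366 to 0.966, which leaves out the spread between libraries. Its promoter window held the letters CACCTG or CAGGTG, the E-box that ZEB proteins are known to bind, and TAGGTG or CACCTA as well. CACCTG or CAGGTG was found in 10 of the 40 member promoters (25%) and in 20.6% of all 27305 promoters of 300 bases, so the members are near the background. These 2 strings are each other's reverse complement, so both strands were covered.

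The imprinted RNA H19 had 8 counts in ZEB1 replicate 3, 12 in control replicate 2 and 0 in the other libraries. MEG3, an imprinted RNA expressed from the maternal allele, had 12 counts in ZEB1 replicate 3 and 0 elsewhere, and MIR205HG, host of an epithelial miRNA, had 3 counts in ZEB1 replicate 3 and 0 elsewhere. A floor of 3 counts stands for 2.35, 1.85 and 0.905 CPM in ZEB1 replicates 1, 2 and 3 and 0.510 to 0.560 CPM in controls. A change near or below this floor was not detectable at this depth, and H19, MEG3 and MIR205HG were not tested. Among the untested SNHG genes SNHG20 had 5 counts in the ZEB1 libraries and 33 in the controls, of which 29 were in control replicate 1. SNHG21 had 1 in the ZEB1 libraries and 19 in the controls, 18 of them in control replicate 2. The other 5 (SNHG4, SNHG22, SNHG27, SNHG28 and SNHG31) had 0 to 4 counts in all.

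Levels between genes were compared per kilobase of exon, as the union of GENCODE v29 exons. In CPM, without division by length, MALAT1 was the highest member, with means of 1694 in ZEB1 libraries and 1991 in controls. ZFAS1 had 1048 and 633 CPM. Per kilobase the order was another. Mean values were then highest for ZFAS1, at 467 CPM per kb in ZEB1 libraries and 282 in controls. In ZEB1 libraries SNHG6 followed, at 245 CPM per kb there and 154 in controls. MALAT1 had 192 CPM per kb in ZEB1 libraries and 226 in controls. SNHG8, SNHG9 and SNHG19 had 181, 177 and 166 CPM per kb in ZEB1 libraries and 125, 108 and 82.5 in controls. In the controls MALAT1 came after ZFAS1, and in the ZEB1 libraries it came after ZFAS1 and SNHG6. As DRUG-seq primes on poly(A), counts need not grow with exon length, so this scale lowers long genes and raises short ones. SNHG19, with 342 bases of exon, had means of 56.8 CPM in ZEB1 libraries and 28.2 CPM in controls. The long NEAT1 had 0.908 CPM per kb in ZEB1 libraries and 0.852 in controls. lncRNAs outside the members, of which 282 were tested, had a median log2 fold change of 0.15. An unadjusted p under 0.05 was found for 8 that were higher (2.84%) and 5 that were lower (1.77%). Over all tested genes these shares were 5.83% and 3.57%. The lncRNA hosts had 10 of 22 higher and 0 lower by the same measure. Of the 282 other lncRNAs, 58.5% lay above 0. These groups differ in level, as all 4064 lncRNA rows outside the members held 0.356 to 0.432% of a library's counts. The 29 hosts held 0.283 to 0.415%. Hosts thus had more counts per gene, and a like change would more easily reach such a p in them.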

How the data were processed

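Raw counts per gene were deposited by the authors, one column per library, and are read here as counts of reads per Entrez ID. The submitters' processing notes name the build GRCh38 and the tools HISAT2, Subread and featureCounts, with no versions. Not given in the sources used here: annotation release, strand setting and collapse of molecular identifiers. Without such a collapse, counting intervals would be too narrow. IDs were matched to RefSeq (GRCh38.p14) symbols (27745 of 28395).

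The main test was edgeR 4.0.16 under R 4.3.3 (quasi-likelihood test, robust dispersions, TMM factors, filterByExpr, group as the only term, Benjamini-Hochberg adjustment, two-sided). SEs are approximate, the log2 fold change over the root of F. Alternatives used DESeq2 1.42.0 and limma 3.58.1. The steps were tested on simulated data. log2 CPM used a prior count of 2. Members and lists were chosen with earlier results of these data known. Per-library values are given for tested members with a mean count of at least 20. From each list, called genes or the 2 with the smallest p and the 1 with most counts are named. Some genes of these lists are not reported here.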

Additional observations from a re-analysis of the deposited data

How the results depend on the processing

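Genes called over the whole table numbered 1 in the edgeR test and 0 of these were members. The 2 counts were 127 and 3 with no low-count filter, 170 and 3 with DESeq2, 58 and 1 with limma-voom, and 154 and 3 with quality weights. With ZEB1 replicate 3 as the sole ZEB1 library 2 genes were called, and leaving out single libraries gave 1 to 409 genes and 0 to 6 members. RLE factors, a mean count of at least 20, thinning and dispersions without robust estimation kept 1 and 0.

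The median log2 fold change of all tested members (0.26) was 0.13 with library size only, 0.12 to 0.25 on leaving out single libraries and -0.00034 with ZEB1 replicate 3 alone. That of the hosts (0.35) was 0.25 to 0.45 on leaving out single libraries and 0.0054 with replicate 3 alone. For the nuclear members (0.02) it was -0.11 with library size only, -0.098 with no low-count filter and -0.058 to 0.19 on leaving out single libraries. miRNA hosts had -0.0025 with no filter, or -0.39 to -0.21. NORAD, CYTOR and OIP5-AS1 had 0.15 with library size only, 0.15 with thinning, -0.0196 with replicate 3 alone and 0.12 to 0.31 on leaving out single libraries.

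Signs turned for 15 of the 34 tested members in at least 1 setting. With library size only SNHG3 was -0.081, NEAT1 -0.0011, NORAD -0.081 and SNHG7 -0.077. With ZEB1 replicate 3 alone SNHG3 was -0.012, GAS5 -0.28, SNHG9 -0.064, SNHG19 -0.15, MIR22HG 0.34, CYTOR -0.0196, NORAD -0.087, SNHG33 -0.73 and SNHG32 -0.0003. On leaving out single libraries the ranges were -0.076 to 0.24 for SNHG3, -0.015 to 0.34 for SNHG12, -0.091 to 0.74 for KCNQ1OT1, -0.097 to 0.21 for NEAT1 and -0.93 to 0.14 for MIR22HG. They were -0.019 to 0.12 for NORAD, -0.023 to 0.60 for SNHG11, -0.40 to 0.20 for LINC-PINT and -0.021 to 0.15 for SNHG7. The cause was not tested.

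With the replicate number as a block, 1 gene and 0 members were called and KCNQ1OT1 was -0.002. Deviations of libraries with the same replicate number did not go together (correlations -0.032, -0.0095 and 0.0087). With so few libraries and their counting noise, such values cannot exclude a pairing. At an unadjusted p under 0.05 the block left 8 of the 11 members and 7 of the 10 hosts, without GAS5, SNHG10 and SNHG32. The share of all genes at that p with the block is not reported here, so these counts have no background beside them. The median SE of the log2 fold change over the genes tested was 0.33, and 0.31 over the fewer genes tested with all libraries thinned to the smallest.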

Other observations

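Outside the members, the lncRNAs with the smallest unadjusted p, chosen after their values were seen, were BCYRN1, LINC02067, HMGA2-AS1, IQCH-AS1 and EMC3-AS1, and none passed an edgeR adjusted p of 0.05. BCYRN1, a transcript made by RNA polymerase III whose sequence resembles Alu repeats, had 954, 611 and 334 CPM in ZEB1 libraries and 256, 353 and 271 CPM in controls (log2 fold change 1.10, SE 0.25, edgeR adjusted p 0.161). Its ZEB1 libraries stood in the same order as those of the snoRNA hosts, but reads of its many near-identical copies make it uncertain. LINC02067 had 546, 379 and 331 CPM in ZEB1 libraries and 239, 285 and 237 CPM in controls (0.72, SE 0.18), without overlap, and DESeq2 called it (adjusted p 0.00903). HMGA2-AS1, within the HMGA2 locus, had 13.3, 8.36 and 10.4 CPM with the ZEB1 vector and 22.8, 23.3 and 35.6 CPM with the control vector (-1.36, SE 0.37). EMC3-AS1 was lower in all 3 ZEB1 libraries (-0.91, SE 0.31), and IQCH-AS1, with 10, 16 and 13 counts in ZEB1 libraries and 3, 6 and 6 in controls, was higher (3.10, SE 0.95).

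All snoRNA and small Cajal body RNA rows summed to 399, 289 and 158 CPM in ZEB1 replicates 1, 2 and 3 and 158, 188 and 176 CPM in controls, a ratio of 1.62 with overlapping groups (two-sided exact permutation p = 0.4). SCARNA22 had 46.2, 30.2 and 13.4 CPM in ZEB1 libraries and 7.70, 9.84 and 5.22 CPM in controls (log2 fold change 1.93, SE 0.45, edgeR adjusted p 0.161), without overlap. SCARNA12 had 29.3, 36.7 and 13.1 CPM in ZEB1 libraries and 17.3, 11.3 and 14.2 CPM in controls, which overlap in replicate 3.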
